A study of Mus musculus with 10 samples.

Results

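The 10 genes described here encode glutathione S-transferases. They are Gstm1, Gstm2, Gstm5 and Gstm7 of the mu class, Gsta4 of the alpha class, Gstt1 and Gstt3 of the theta class, Gstk1 of the kappa class, Gsto1 of the omega class and Gstz1 of the zeta class. They were taken by symbol from 27 glutathione S-transferase genes, and from 46152 genes counted in all. They were chosen by measured values, namely with their difference between GW2580 and vehicle known, so that difference is given as a description. Where calls at the threshold of the study are counted for it, nothing is read from them. The question asked of each gene was whether its level followed the astrocyte genes Slc1a2 and Aqp4 from library to library. RNA was sequenced from brain cells of 10 C57BL/6J mice aged 8 to 12 weeks, 1 library per mouse, after oral gavage for 8 days. In one group 5 mice received GW2580, an inhibitor of the CSF1R kinase, at 80 mg/kg/d, and in the other 5 mice received the vehicle alone (Tween 80 with hydroxymethyl propyl-cellulose). Each group held 2 male and 3 female mice. The cells had passed through Percoll and a magnetic selection for CD11b, a surface protein of microglia that monocytes and granulocytes carry as well. In bulk samples such as these, fewer cells of a type and less RNA per cell cannot be told apart.

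Glutathione S-transferases join the tripeptide glutathione to electrophilic compounds, which makes these compounds more soluble and easier to export. The classes differ in substrate. Mu and alpha enzymes act on xenobiotics and on aldehydes from lipid peroxidation, theta enzymes on small halogenated compounds, and the kappa enzyme works in mitochondria and peroxisomes. The omega enzyme reduces dehydroascorbate and takes glutathione off protein thiols, and the zeta enzyme is the maleylacetoacetate isomerase of tyrosine breakdown. In the brain, mu-class enzymes are known from astrocytes. Slc1a2 encodes the main glutamate transporter of astrocytes and Aqp4 the water channel of their endfeet.

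Assigned fragments numbered 12550418 to 20854218 with vehicle and 13228819 to 26079343 with GW2580. GW2580 1 and GW2580 4 stood apart in this, with 56.1% and 60.1% of their counting records on no annotated exon, against 38.4% to 49.1% with vehicle and 38.7% to 51.5% in the other GW2580 libraries. Levels are given as CPM, which are counts scaled to the library size and to TMM factors (trimmed mean of M-values). The microglial marker Tmem119 was high in all 10 libraries, at 2710 to 12451 CPM. The list of 8 microglia genes summed to 11712 CPM in Vehicle 5 and to 20867 to 26649 CPM in the other vehicle libraries. With GW2580 it summed to 16579 CPM in GW2580 4 and to 18775 to 54517 CPM in the other libraries. The libraries were not alike in other cell types. Slc1a2 was at 128.3 CPM in Vehicle 2 and 103.6 in Vehicle 5, against 13.4 to 15.6 in the other 3 vehicle libraries. With GW2580 it was at 50.9 CPM in GW2580 4 and at 13.4 to 16.9 in the other 4 libraries. Aqp4 was at 28.2 CPM in Vehicle 2, 48.8 in Vehicle 5 and 11.2 in GW2580 4, and at 2.3 to 5.1 in the other 7 libraries. All 10 astrocyte genes of the marker list were higher in Vehicle 2 and Vehicle 5 than in the other vehicle libraries, and their summed level ranged from 205 to 3122 CPM with vehicle and from 210 to 674 CPM with GW2580. Both libraries also held more oligodendrocyte RNA. The list of 9 oligodendrocyte genes summed to 17908 CPM in Vehicle 2 and 4361 in Vehicle 5, and to 163 to 336 in the other vehicle libraries. Vehicle 5 alone was high in ependymal and choroid plexus genes, with 25667 CPM for the list against 1203 to 2952 in the other vehicle libraries. Of this sum 24921 CPM were Ttr. Folr1 (622 CPM) and Foxj1 (123 CPM) were also high there, whereas Tmem212 was not (1.24 CPM, against 1.19 to 4.43 in the other vehicle libraries) and Kl had 3 counts. The endothelial list of 5 genes summed to 35.7 to 63.1 CPM with vehicle and 48.9 to 67.2 CPM with GW2580, and 1 of its genes, Cldn5, was listed at 0 in every library, as were the ribosomal genes Rps10 and Rps18. Results are therefore given with and without Vehicle 2 and Vehicle 5. Unless stated, GW2580 4 stays in, although it was high in Slc1a2 and Aqp4 as well. This setting is therefore one-sided between the groups.

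The 4 mu-class genes lie within a cluster on chromosome 3 of GRCm38. Gstm5 (NCBI gene 14866) runs from 107895854 to 107898685 on the forward strand, and Gstm7 (68312, from 107926334 to 107931877), Gstm2 (14863, from 107981702 to 107986420) and Gstm1 (14862, from 108012250 to 108017979) lie on the reverse strand. Their promoters were compared because these genes of 1 cluster differed in which library they were highest. The sequences below run from 250 bases before to 50 bases after a start site and come from RefSeq (GRCm38.p6), with Gsto1 of chromosome 19 added as a gene that did not rise in the same libraries. Capitals mark TGACNNNGC, the core of the antioxidant response element bound by NRF2, searched on both strands, and TATAAA, searched on the gene's strand.
Gstm1 (chr3:108017769-108018068, reverse strand): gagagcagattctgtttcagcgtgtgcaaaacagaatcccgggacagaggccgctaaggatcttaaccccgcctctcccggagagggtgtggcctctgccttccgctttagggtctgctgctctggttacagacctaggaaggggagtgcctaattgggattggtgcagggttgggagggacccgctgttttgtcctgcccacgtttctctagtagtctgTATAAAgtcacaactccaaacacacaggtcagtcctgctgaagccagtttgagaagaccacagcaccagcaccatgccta
Gstm5 (chr3:107895604-107895903, forward strand): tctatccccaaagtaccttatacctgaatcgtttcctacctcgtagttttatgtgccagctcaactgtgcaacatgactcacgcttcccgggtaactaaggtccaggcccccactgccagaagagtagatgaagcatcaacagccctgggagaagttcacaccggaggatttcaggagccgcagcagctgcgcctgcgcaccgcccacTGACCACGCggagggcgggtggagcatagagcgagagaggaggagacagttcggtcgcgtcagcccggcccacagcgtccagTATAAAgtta
Gstm7 (chr3:107931565-107931864, reverse strand): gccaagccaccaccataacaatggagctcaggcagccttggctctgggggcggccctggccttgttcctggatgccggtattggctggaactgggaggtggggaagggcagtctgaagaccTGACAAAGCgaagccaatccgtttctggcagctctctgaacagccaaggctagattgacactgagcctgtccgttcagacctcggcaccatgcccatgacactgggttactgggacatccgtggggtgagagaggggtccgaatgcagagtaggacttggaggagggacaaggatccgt
Gsto1 (chr19:47854723-47855022, forward strand): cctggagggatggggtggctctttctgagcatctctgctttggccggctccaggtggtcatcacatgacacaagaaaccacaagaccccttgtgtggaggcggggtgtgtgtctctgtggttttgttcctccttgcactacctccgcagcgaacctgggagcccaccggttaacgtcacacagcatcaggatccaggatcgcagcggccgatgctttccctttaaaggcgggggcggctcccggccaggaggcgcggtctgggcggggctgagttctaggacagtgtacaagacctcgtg
Of the 10 genes, 9 had a promoter in the table, with 13 start sites in all, and Gsta4 had none. TGACNNNGC occurred in 1 window of Gstm5 (TGACCACGC, first base at -42) and 1 of Gstm7 (TGACAAAGC, first base at -129), that is in 2 of 13 windows, and in 12.4% of all 32851 promoter windows of that length. TATAAA had its first base at -30 from the downstream start site of Gstm1 and at 40 in the window of Gstm5, stood at -231 from the other start site of Gstm7, whose window is not shown, and occurs in 8.32% of all windows. The window of Gstm2, which is not shown either, held neither TGACNNNGC nor TATAAA. These letters describe the windows only.

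Gstm1, the mu-class gene with the most fragments, was at 59.0 CPM in Vehicle 1, 1157 in Vehicle 2, 26.1 in Vehicle 3, 36.1 in Vehicle 4 and 228 in Vehicle 5. With GW2580 it was at 17.8, 61.6, 26.6, 66.8 and 19.3 CPM in libraries 1 to 5. Only Vehicle 2 and Vehicle 5 lay above all GW2580 libraries, and the other 3 vehicle libraries lay within the GW2580 range. Vehicle 2 held 28.6 times the mean of Vehicle 1, 3 and 4. The log2 fold change of GW2580 over vehicle was -2.97 (SE 0.95). It was -0.09 (SE 0.47) without Vehicle 2 and Vehicle 5. GW2580 4, the GW2580 library highest in Slc1a2 and Aqp4, stays in that fit, so the value near 0 rests in part on it. Gstm1 was also the only 1 of the 10 genes to be highest, among the GW2580 libraries, in GW2580 4, where it stood at 2.13 times the mean of the other 4.

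Gstm5, at the other end of these 4 genes, was at 20.8, 347, 31.7, 29.5 and 95.3 CPM in Vehicle 1 to 5 and at 6.0, 17.9, 13.2, 14.6 and 16.6 CPM in GW2580 1 to 5. The groups did not overlap. This was the only member without overlap between the groups, and of all genes tested 0.985% had every GW2580 library below every vehicle library. The log2 fold change was -2.94 (SE 0.73) and, without Vehicle 2 and Vehicle 5, -1.01 (SE 0.34). Like Gstm1, Gstm5 was highest in Vehicle 2, at 12.7 times the mean of Vehicle 1, 3 and 4, and 3.64 times the level in Vehicle 5. In GW2580 4 it held rank 3 of 5.

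Gstm2 and Gstm7 had low levels and stood highest in Vehicle 5. Gstm2 was at 1.6, 5.7, 3.2, 1.9 and 19.5 CPM with vehicle and at 0.6, 1.6, 1.4, 0.6 and 2.3 CPM with GW2580. Gstm7 was at 3.3, 16.7, 1.8, 2.0 and 20.95 CPM with vehicle and at 0.7, 2.4, 1.6, 2.2 and 1.8 CPM with GW2580. The groups overlapped in both genes, and 3 of 5 GW2580 libraries were below all vehicle libraries in each. The log2 fold changes were -2.28 (SE 0.68) for Gstm2 and -2.35 (SE 0.68) for Gstm7. Without Vehicle 2 and Vehicle 5 they were -0.76 (SE 0.49) and -0.45 (SE 0.43). The level in Vehicle 5 was 3.44 times that in Vehicle 2 for Gstm2 and 1.25 times for Gstm7, whereas for Gstm1 it was 0.197 times.

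**Figure D1:**
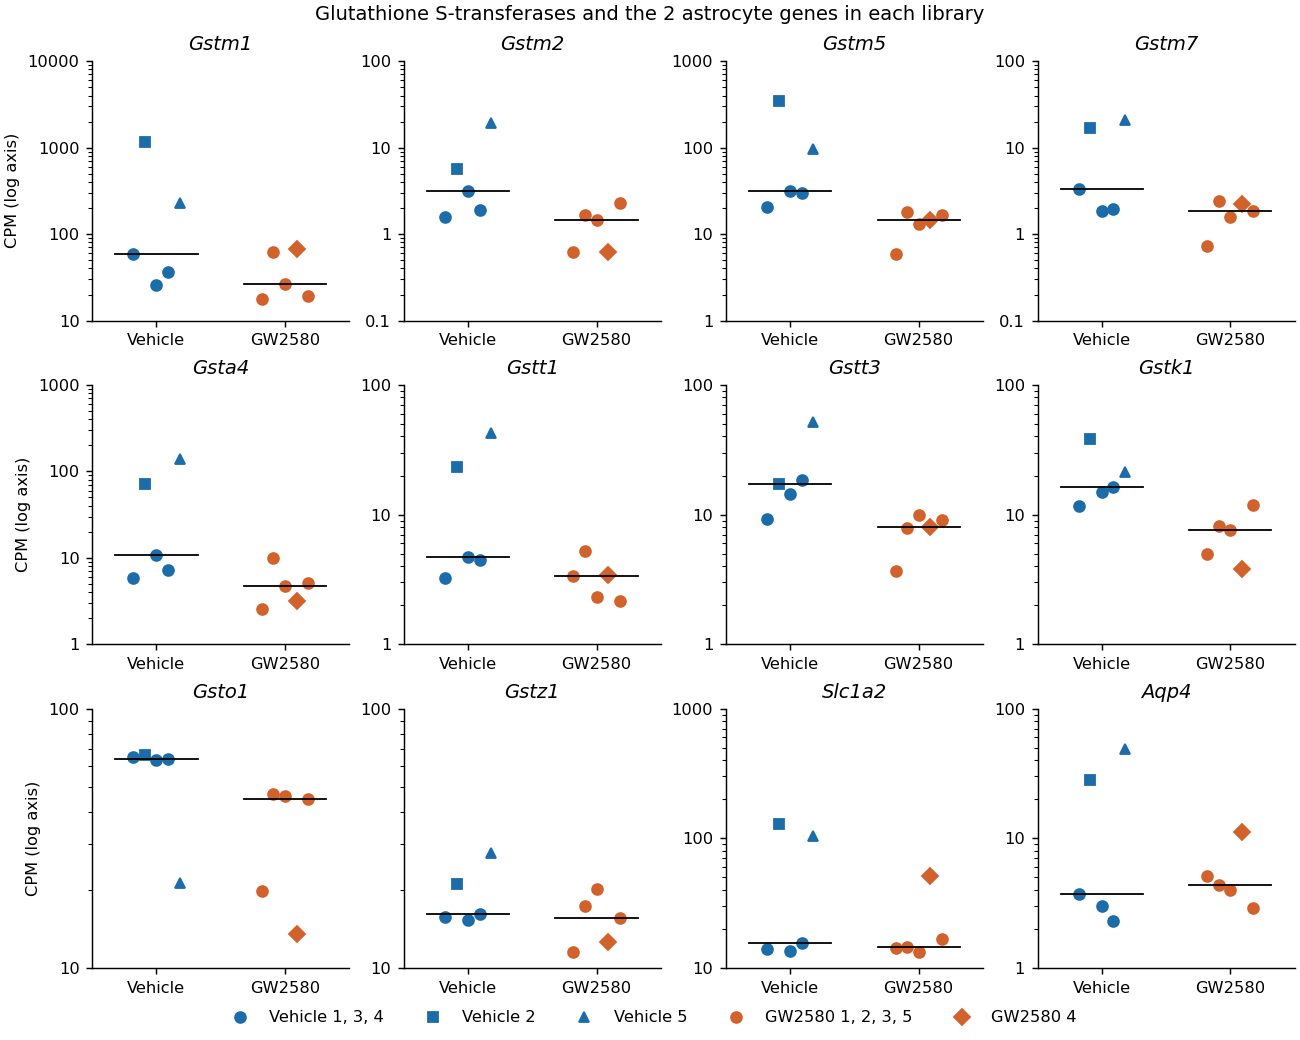
Level of each glutathione S-transferase and of Slc1a2 and Aqp4 in the 10 libraries, in CPM after TMM scaling on a log axis, with 1 point per library and a line at the median of the 5 libraries of a group. Vehicle 2 (square) and Vehicle 5 (triangle) stand above the other vehicle libraries in most panels, whereas Gsto1 is low in Vehicle 5, and GW2580 4 (diamond) is high in Slc1a2 and Aqp4 without being high in most of the transferases.

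Gsta4 (NCBI gene 14860, chromosome 9 from 78191966 to 78209349) encodes the alpha enzyme that conjugates 4-hydroxynonenal, an aldehyde of lipid peroxidation. It was at 5.9, 71.3, 10.8, 7.3 and 138 CPM in Vehicle 1 to 5 and at 2.6, 9.9, 4.7, 3.2 and 5.1 CPM in GW2580 1 to 5. The vehicle libraries all lay above 4 of the 5 GW2580 libraries, and GW2580 2 lay within the vehicle range. Its log2 fold change of -3.20 (SE 0.83) was -0.66 (SE 0.40) without Vehicle 2 and Vehicle 5. Vehicle 5 held 17.3 times and Vehicle 2 held 8.91 times the mean of the other vehicle libraries. In GW2580 4 Gsta4 was at 0.570 times the mean of the other GW2580 libraries.

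The theta-class genes Gstt1 (NCBI gene 14871, from 75783813 to 75798584) and Gstt3 (103140, from 75774117 to 75781422) are neighbours on chromosome 10. Gstt1 was at 3.2, 23.1, 4.7, 4.5 and 42.8 CPM with vehicle and at 3.3, 5.2, 2.3, 3.4 and 2.2 CPM with GW2580. Vehicle 1, 3 and 4 overlapped with the GW2580 libraries. The log2 fold change was -2.25 (SE 0.66), and -0.34 (SE 0.35) without the libraries Vehicle 2 and Vehicle 5. Gstt3 differed from its neighbour in Vehicle 2. It was at 9.3, 17.2, 14.4, 18.5 and 51.9 CPM with vehicle, so that Vehicle 2 lay within the range of Vehicle 1, 3 and 4 and only Vehicle 5 stood out. With GW2580 it was at 3.7, 7.8, 9.9, 8.0 and 9.1 CPM, and 4 of these 5 values were below the vehicle range. The log2 fold change of Gstt3 was -1.53 (SE 0.45), and -0.88 (SE 0.33) without both libraries.

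Gstk1 (NCBI gene 76263, chromosome 6 from 42245935 to 42250441), the mitochondrial and peroxisomal enzyme, was at 11.6, 38.2, 14.9, 16.2 and 21.3 CPM with vehicle and at 4.9, 8.2, 7.7, 3.8 and 11.8 CPM with GW2580. The groups overlapped only in Vehicle 1 and GW2580 5, and the other 4 GW2580 libraries were below all vehicle libraries. Its log2 fold change was -1.49 (SE 0.40), and -0.98 (SE 0.34) without Vehicle 2 and Vehicle 5. Vehicle 2 was 2.69 times and Vehicle 5 was 1.5 times the mean of the other vehicle libraries.

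Gsto1 (NCBI gene 14873, chromosome 19 from 47854973 to 47864790), the omega enzyme, was low in Vehicle 5, where most other members were high. It was at 65.1, 66.4, 63.7 and 63.7 CPM in Vehicle 1 to 4 and at 21.2 in Vehicle 5. With GW2580 it was at 19.8, 46.9, 46.2, 13.5 and 44.8 CPM in libraries 1 to 5. The 4 high vehicle libraries lay above all GW2580 libraries, and Vehicle 5 lay among the low ones. The low libraries Vehicle 5, GW2580 1 and GW2580 4 were also low in cytosolic ribosomal protein genes, whose summed level was 4107, 1903 and 1249 CPM there. In the other vehicle libraries that sum was 7721 to 9895 CPM, and in GW2580 2, 3 and 5 it was 4824, 4187 and 12954 CPM. Several microglia genes were low in Vehicle 5 and GW2580 4 too. In Vehicle 5, Siglech, Gpr34 and P2ry12 were at 0.24, 0.28 and 0.34 times the mean of Vehicle 1, 3 and 4. Tmem119 and Cx3cr1 were at 0.71 and 0.82 times there, and Sall1 at 1.55 times. In GW2580 4, Siglech, Gpr34 and P2ry12 were at 0.36, 0.37 and 0.40 times the mean of the other GW2580 libraries. In GW2580 1 and GW2580 4, the libraries with the most records on no annotated exon, Gsto1, Gstk1, Gsta4, Gstm2 and Gstz1 were at their lowest levels with GW2580. A slope of Gsto1 on the ribosomal genes is given below. The part of the ribosomal genes, the microglia genes and these records in the difference between the groups was not tested. The log2 fold change of Gsto1 was -0.71 (SE 0.42) and, without Vehicle 2 and Vehicle 5, -0.92 (SE 0.41).

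Gstz1 (NCBI gene 14874, chromosome 12 from 87147161 to 87164723), the zeta enzyme, varied least of the 10 genes. It was at 15.8, 21.1, 15.4, 16.2 and 27.8 CPM with vehicle and at 11.5, 17.4, 20.2, 12.6 and 15.6 CPM with GW2580. The groups overlapped. The log2 fold change was -0.32 (SE 0.29), and -0.04 (SE 0.27) without Vehicle 2 and Vehicle 5.

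All 10 log2 fold changes were below 0, with a median of -2.26, and the median over all 28419 genes tested was -0.03. The same contrast was computed for marker genes of other cell types. Below 0 were 10 of 10 astrocyte genes (median -1.55), 8 of 8 tested oligodendrocyte genes (median -2.19) and 4 of 4 tested ependymal and choroid plexus genes (median -2.59), whereas 7 of 8 microglia genes were above 0 (median 0.34), and at the threshold of the study 2, 5 and 3 of the first 3 lists were called lower and 1 microglia gene was called higher. Under scaling by library size alone these counts were 9, 8 and 3 below 0 and 7 above. Without Vehicle 2 and Vehicle 5 all 10 astrocyte genes were above 0 (median 0.88), as were 6 of 7 tested oligodendrocyte genes (median 0.64), while the 4 ependymal and choroid plexus genes stayed below 0 (median -0.39) and the microglia genes were 4 above and 4 below. At the threshold of the study (a fold change over 2 with an unadjusted p under 0.05), 8 of the 10 were called lower, the exceptions being Gsto1 and Gstz1. Of all genes, 6.7% were called lower and 4.01% higher. The genes were chosen with this contrast known. Scaling by library size alone moved the median of all genes to 0.23 and the split of calls from 1905 lower and 1141 higher to 875 lower and 2123 higher, and 8 of the 10 transferases were called lower under it too. Without Vehicle 2 and Vehicle 5, 1 of 10 was called lower (Gstm5), against 3.42% of all genes, all 10 were still below 0 and the median was -0.71. An unadjusted p under 0.05 was found for 4 of the 10 there (Gstm5, Gstk1, Gstt3 and Gsto1), as for 14.1% of all genes in either direction. The fold changes of Gstk1, Gstt3 and Gsto1 were under 2 there. Since the genes were chosen with this contrast known, nothing is read from these p-values. With the mean of Slc1a2 and Aqp4 as a covariate, 4 of 10 were called lower, against 3.75% of all genes, namely Gstm5 at -1.57, Gsta4 at -1.23, Gstk1 at -1.23 and Gstt3 at -1.12. An unadjusted p under 0.05 was found for 7 of 10 in that model, with Gstm7, Gstt1 and Gsto1 in addition, as for 12% of all genes in either direction. Single libraries moved some values. Without Vehicle 2 alone the log2 fold change of Gstm1 was -1.18 and that of Gstm5 was -1.70, and without Vehicle 5 alone that of Gstm2 was -1.23, that of Gstt1 was -1.43 and that of Gstt3 was -0.94. With each library left out in turn, that of Gstz1 ran from -0.43 to -0.15.

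**Figure D2:**
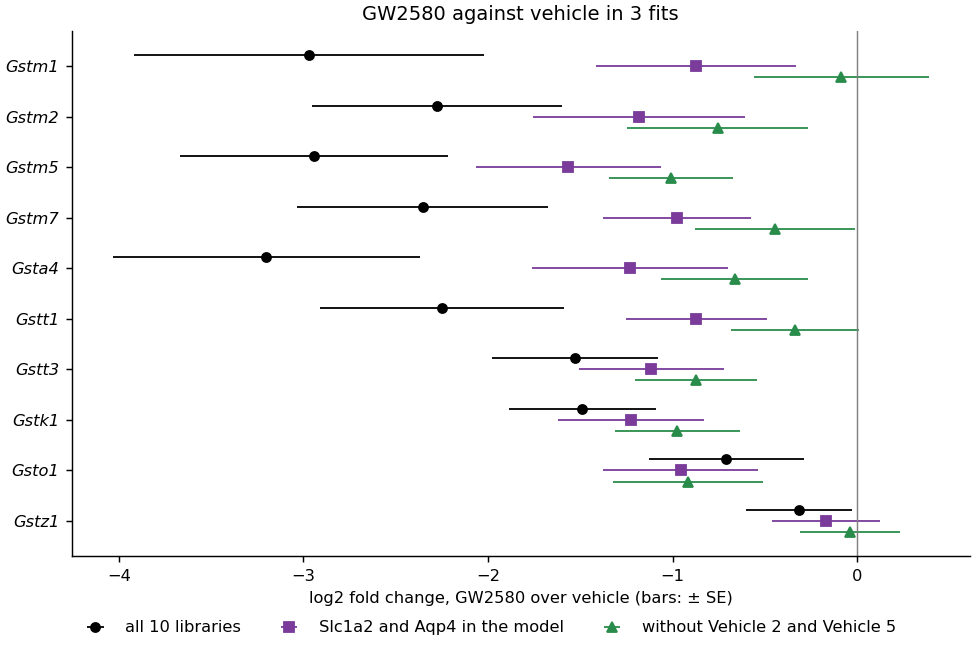
Log2 fold change of GW2580 over vehicle for each transferase (points) with its standard error (bars), from all 10 libraries (circles), with Slc1a2 and Aqp4 as a covariate (squares) and without Vehicle 2 and Vehicle 5 (triangles). All estimates lie below 0, and those of the mu, alpha and theta genes move toward 0 without the 2 libraries, from -2.97 to -0.09 for Gstm1.

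The level of each gene was then compared with the astrocyte genes within the groups. The slope is the log2 change of a gene per log2 unit of the mean of Slc1a2 and Aqp4. The model also holds the group, so that the slope is taken within the groups. The choice of the genes can still enter it, since their difference between the groups was known. For most of them that difference shrank without the vehicle libraries high in the astrocyte genes. Those libraries also hold most of the spread in the astrocyte genes. Here and below, shares of all genes therefore stand beside the counts as a description only. With all 10 libraries 9 of 10 slopes were above 0, and 5 passed an adjusted p of 0.05 in edgeR's quasi-likelihood test, which is two-sided and adjusted over all 28419 genes, compared with 4.1% of all genes. They belonged to Gstm1 (slope 1.20, SE 0.22, adjusted p = 0.00491), Gsta4 (0.97, SE 0.20, adjusted p = 0.0116), Gstm7 (0.83, SE 0.15, adjusted p = 0.00365), Gstt1 (0.81, SE 0.14, adjusted p = 0.00328) and Gstm5 (0.80, SE 0.19, adjusted p = 0.0267). A slope near 1 means that the gene changed in proportion to the astrocyte genes. Gstm2 had a slope of 0.61 (SE 0.21, adjusted p = 0.119), Gstt3 of 0.33 (SE 0.14, adjusted p = 0.243), Gstk1 of 0.20 (SE 0.15, adjusted p = 0.529) and Gstz1 of 0.14 (SE 0.11, adjusted p = 0.566). Gsto1 was the exception in sign, with a slope of -0.28 (SE 0.16, adjusted p = 0.407).

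The calls rested on Vehicle 2 and Vehicle 5 together, which hold most of the spread in the astrocyte genes. Without them 0 of 10 slopes passed the adjusted threshold in edgeR's quasi-likelihood test, 2 had an unadjusted p under 0.05 (Gstk1 and Gsto1, both below 0), as had 14.2% of all genes in either direction, and 7 of 10 were below 0. DESeq2 was not run on these 8 libraries. Of the 5 genes named, Gstm1 had a slope of 0.75 (SE 0.36), Gstm7 of 0.28 (SE 0.39) and Gstt1 of 0.07 (SE 0.33), whereas Gstm5 was at -0.02 (SE 0.30) and Gsta4 at -0.52 (SE 0.37). Among these 8 libraries only GW2580 4 was high in the astrocyte genes, with 3.44 times the Slc1a2 and 2.74 times the Aqp4 of the other GW2580 libraries. Ranked among the 5 GW2580 libraries, GW2580 4 had rank 1 for Gstm1, rank 2 for Gstm7 and Gstt1, rank 3 for Gstm5 and Gstt3, rank 4 for Gsta4 and Gstz1, and rank 5 for Gstm2, Gstk1 and Gsto1. When each library was left out in turn, 3 to 6 genes passed. Of all genes, between 431 of 28266 (without Vehicle 4) and 2703 of 27791 (without Vehicle 2) then passed with a positive slope. Gstm1, Gstm7 and Gstt1 passed each time. Single libraries moved the size of some slopes by over 1.5 times. Without Vehicle 2 the slope was 0.74 for Gstm1, 0.43 for Gstm5 and 0.02 for Gstk1, and without Vehicle 5 it was 0.22 for Gstm2, 0.05 for Gstt3, 0.05 for Gstz1 and -0.15 for Gsto1. Gstm5 did not pass without Vehicle 1, 2, 3 or 4 (adjusted p = 0.132, 0.0631, 0.132 and 0.157, edgeR), nor did Gsta4 without Vehicle 1, 3, 4 or 5 (adjusted p = 0.0854, 0.0659, 0.110 and 0.0697, edgeR). Gstm2 passed without Vehicle 2 (adjusted p = 0.0360, edgeR) and without GW2580 4 (adjusted p = 0.0278, edgeR), and the slope of Gsto1 was -0.57 without Vehicle 2 (adjusted p = 0.0307, edgeR). Of all 27791 genes tested without Vehicle 2, 2703 passed with a positive and 1488 with a negative slope. Without GW2580 4, 1382 of 27522 passed with a positive slope.

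**Figure D3:**
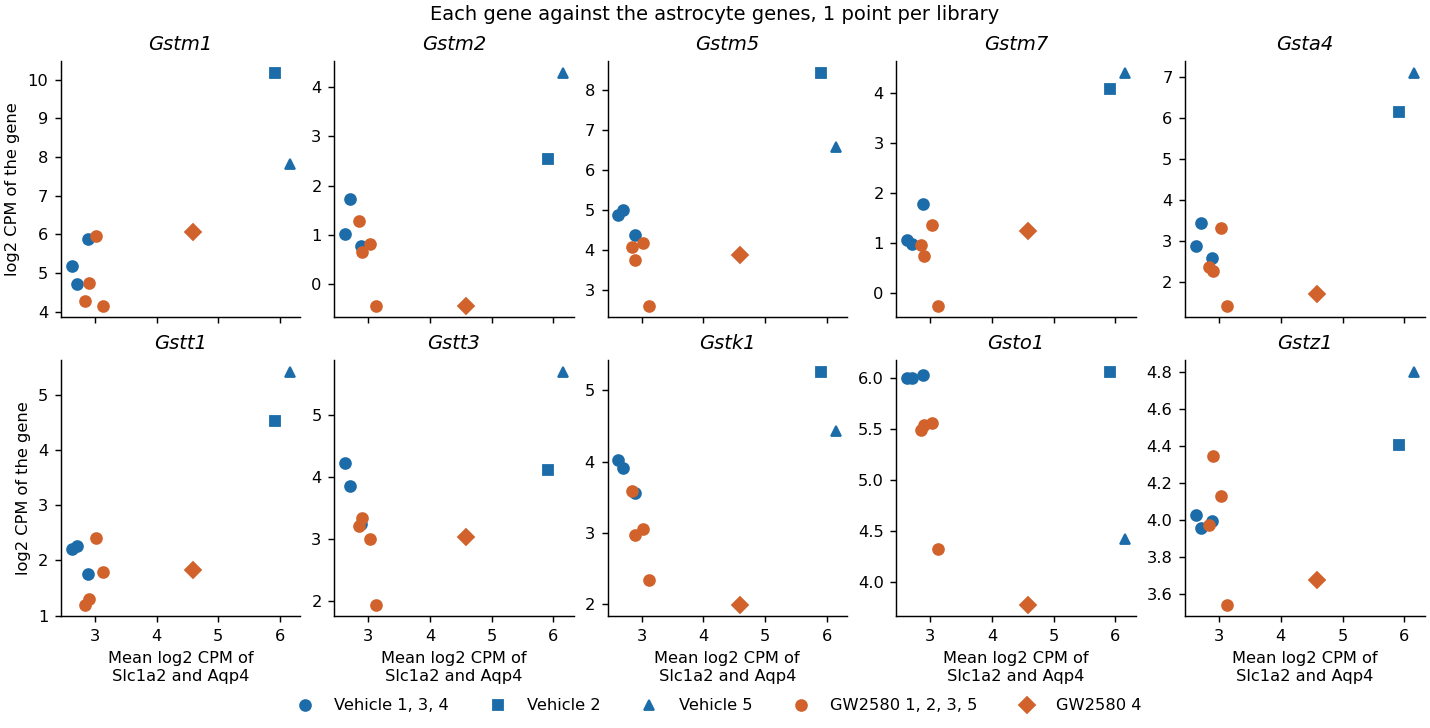
Log2 CPM of each transferase (vertical axis) against the mean log2 CPM of Slc1a2 and Aqp4 (horizontal axis), with 1 point per library. Vehicle 2 (square) and Vehicle 5 (triangle) lie far to the right and are high for the mu and alpha genes and Gstt1. Vehicle 2 is within the vehicle range for Gstt3, and GW2580 4 (diamond) lies between them and the rest. The other 7 libraries lie between 2.625 and 3.121 on the horizontal axis.

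**Figure D4:**
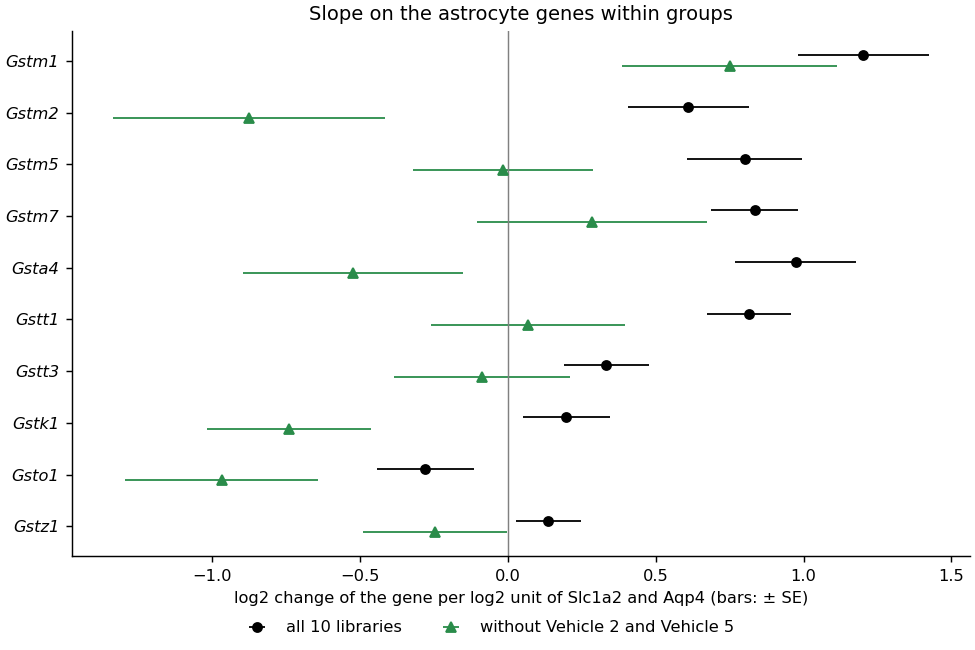
Slope of each transferase on the mean of Slc1a2 and Aqp4 within the groups (points, log2 change per log2 unit) with its standard error (bars), from all 10 libraries (circles) and without Vehicle 2 and Vehicle 5 (triangles). With all libraries 9 of 10 slopes lie above 0, and without the 2 libraries 7 of 10 lie below 0.

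A test that makes no assumption on the spread gave fewer calls. Pearson's r was computed between each gene and the mean of Slc1a2 and Aqp4, both as deviations from the group mean of log2 CPM, and tested two-sided by exact permutation within the groups (14400 arrangements, smallest p 6.94e-05). It was 0.89 for Gstm7 (p = 0.0275, exact), 0.89 for Gstt1 (p = 0.0251, exact) and 0.86 for Gstm1 (p = 0.0213, exact), and between 0.34 and 0.80 for Gsta4, Gstm5, Gstm2, Gstt3, Gstz1 and Gstk1, none of which had an exact p under 0.05. Spearman's rho of the same deviations was 0.83 for Gstm7 (p = 0.0482, exact), 0.93 for Gstt1 (p = 0.0147, exact) and 0.85 for Gstm1 (p = 0.0344, exact). Thus 3 of 10 genes had a positive r with an unadjusted exact p under 0.05, and so did 7.56% of all genes. This count was 0 to 3 when each library was left out in turn. It was 0 without Vehicle 1, 3 or 4, where the exact p without Vehicle 1 was 0.0701 for Gstm1, 0.0910 for Gstm7 and 0.103 for Gstt1, and it was 1 without Vehicle 2, Vehicle 5 or GW2580 4. After adjustment over all genes 0 of the 10 passed, and the smallest adjusted p was 0.200, for Gsto1. Gsto1 was the only gene with a negative r, of -0.62 (p = 0.0149, exact; rho -0.38, p = 0.226, exact). Its r was -0.37 without Vehicle 5 and -0.53 without GW2580 4 (p = 0.0747, exact, in both). Without Vehicle 2 it was -0.86 (p = 0.0122, exact). The 2 libraries at the greatest distance from the astrocyte median were Vehicle 2 and Vehicle 5. Over the other 8 libraries r was 0.61 for Gstm1, 0.31 for Gstm7 and 0.17 for Gstt1, none with an exact p under 0.05. It was -0.83 for Gsto1 (p = 0.0486, exact) and -0.79 for Gstk1 (p = 0.00556, exact). Of these 8 libraries only GW2580 4 was high in the astrocyte genes, so that they cannot decide whether the relation holds without Vehicle 2 and Vehicle 5.

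The astrocyte genes were not the only ones that moved in these libraries. With the mean of the oligodendrocyte list in place of Slc1a2 and Aqp4, 5 of 10 genes passed the adjusted threshold with a positive slope in edgeR's test, compared with 4.85% of all genes, and they were the same 5 genes (Gstm1, Gstm5, Gstm7, Gsta4 and Gstt1). With the neuron list 2 of 10 passed (Gstm1 and Gstm5), compared with 1.1% of all genes. Slopes were also taken on the ependymal and choroid plexus list, which was added after seeing the data. That list was high in Vehicle 5 alone, so these slopes in part restate the levels in that library. Those of Gstm2 (0.96, SE 0.14), Gsta4 (1.02, SE 0.25), Gstt1 (0.71, SE 0.21) and Gstt3 (0.51, SE 0.13) passed, compared with 7.11% of all genes, whereas Gstm1 (0.04, SE 0.52) and Gstm5 (0.26, SE 0.39) did not. All 4 stood highest in Vehicle 5, as did Gstm7 and Gstz1, which did not pass, and Gstm1 and Gstm5 stood highest in Vehicle 2. With TMM factors left out, 1 of these 4 passed. Without Vehicle 2 and Vehicle 5, 0 of 10 genes passed in edgeR's test on the oligodendrocyte, neuron or ependymal list, and 3, 1 and 4 genes had an unadjusted p under 0.05, compared with 9.82%, 16.1% and 15.2% of all genes.

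With the microglia list 0 of 10 genes passed in edgeR's test, 1 had an unadjusted p under 0.05, as had 12.7% of all genes, and 0% of all genes had a positive slope that passed. Only edgeR was run on these lists. With the ribosomal protein list 0 of 10 passed, 1 had an unadjusted p under 0.05, as had 21.1% of all genes, and 3.62% of all genes passed with a positive slope. That 1 gene was Gsto1, with a slope of 0.63 (SE 0.18, adjusted p = 0.0814, edgeR). Without Vehicle 2 and Vehicle 5, 0 of 10 passed on either list in edgeR's test. On the ribosomal list 8 of 10 slopes were then above 0, against 5 with all libraries. There 3 had an unadjusted p under 0.05, as had 5523 of all 27463 genes in either direction. On the microglia list 0 had, against 7314 of all genes. Levels of the marker lists and of the transferases come from the same libraries, and a slope does not tell in which cells a gene was expressed.

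Within the family, the group-centred r between 2 genes described how alike their patterns were over the 10 libraries. It was highest for Gsta4 with Gstt1 (0.94), Gstm7 with Gsta4 (0.91), Gstm2 with Gsta4 (0.91) and Gstm1 with Gstm5 (0.90). It was 0.34 for Gstm1 with Gstt3 and 0.45 for Gstm1 with Gstm2. Gsto1 had an r of 0.02 or less with all other members except Gstk1 (0.42), and the lowest was -0.49 with Gstt1. Among 14793 genes with a mean of at least 5 CPM, the 2 genes most like each member but Gstt3 were named by the same measure. They were Dusp26 and Ptn for Gstm1 (r = 0.99 and 0.98), Dbndd2 and Fxyd6 for Gstm5 (both 0.96), Tmem107 and Ecrg4 for Gstm2 (0.97 and 0.96), Hopx and Pcbp4 for Gstm7 (both 0.97) and Pcp4l1 and Ptgds for Gsta4 (0.98 and 0.97). For the others they were Nat8f1 and Phlda3 for Gstt1 (both 0.97), Iftap and Ggact for Gstk1 (0.97 and 0.96), Bax and Calhm6 for Gsto1 (both 0.99) and Tsr2 and Serhl for Gstz1 (both 0.97). The points of each r share their library, and no test was made.

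Levels can be compared between genes only per length. As CPM per kilobase of exon, the order of the means with vehicle was Gstm1 (219), Gstm5 (115), Gsta4 (48.8), Gsto1 (47.5), Gstk1 (21.99), Gstt3 (11.8), Gstt1 (9.03), Gstz1 (8.87), Gstm2 (6.17) and Gstm7 (5.89). With GW2580 the order of these per-kilobase means was Gsto1 (29.1), Gstm1 (27.9), Gstm5 (15.0), Gstk1 (7.84), Gstz1 (7.12), Gsta4 (5.31), Gstt3 (4.08), Gstt1 (1.90), Gstm2 (1.29) and Gstm7 (1.15). The means with vehicle carry Vehicle 2 and Vehicle 5, and by the median of the 5 vehicle libraries Gsto1 was first (54.0 CPM per kilobase), before Gstm1 (42.8) and Gstm5 (34.8). No neighbours in either order could be shown to differ beyond their spread. With 5 libraries a two-sided exact sign-flip test cannot give a p below 0.0625, which was reached for Gstm5 over Gstk1 and for Gstt3 over Gstt1 with GW2580, where the order held in 5 of 5 libraries.

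Other genes of glutathione metabolism gave a mixed picture under treatment, and their counts stand against the 6.7% of all genes called lower. Of 17 other glutathione S-transferases and microsomal relatives, 13 were tested and 2 were called lower, Gstt2 (log2 fold change -1.07, SE 0.39) and Mgst3 (-1.36, SE 0.54). None was called higher, and the median over the 13 was -0.36. Gstt2 was at 20.2 to 33.5 CPM with vehicle and 3.9 to 19.8 CPM with GW2580, without overlap, as were 0.985% of all genes. Without Vehicle 2 and Vehicle 5, 12 genes of this list were tested and 2 were called lower, against 3.42% of all genes. Hpgds, the prostaglandin D synthase of the family and a gene of microglia, was at 359 to 401 CPM in Vehicle 1 to 4 and 98.1 in Vehicle 5, and at 247, 341, 438, 118 and 330 CPM with GW2580. Its log2 fold change was -0.13 (SE 0.44). Like Gsto1, it was low in Vehicle 5 and GW2580 4. Mgst1, Gstt2, Gstcd, Mgst2, Gstm4, Gstm6, Gsto2, Gstt4, Gsta2 and Gsta3 had mean levels from 1.12 to 31.4 CPM, and of these Gstt2 alone was called.

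Of 17 genes for the synthesis, recycling and export of glutathione, all were tested and 4 were called lower. These were Ggt7 (-1.99, SE 0.76), Ggct (-1.37, SE 0.47), Ggt1 (-1.21, SE 0.41) and Glo1 (-1.15, SE 0.45), which take glutathione or its products apart or, in the case of Glo1, use it to clear methylglyoxal. Gclc, the catalytic subunit of the rate-limiting step of glutathione synthesis, was at 0.76 (SE 0.35) and was not called. Without Vehicle 2 and Vehicle 5, where 3.42% of all genes were called lower, 0 of the 17 were called by edgeR and 2 had an unadjusted p under 0.05. Among the glutathione peroxidases 3 of 5 tested genes were called lower, Gpx8 (-2.60, SE 0.81), Gpx3 (-1.83, SE 0.83) and Gpx4 (-1.78, SE 0.47), the last of which reduces lipid hydroperoxides. Without Vehicle 2 and Vehicle 5 this was 2 of 5, Gpx4 at -1.34 (SE 0.49) and Gpx1 at -1.54 (SE 0.61), while Gpx3 was at 0.03 (SE 0.54).

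Sex was tested with treatment in the model. Of the 10 transferases 0 differed between male and female mice by edgeR, against 0.0915% of all genes. By the same test 0 had an unadjusted p under 0.05, against 573 of all 28419 genes. By DESeq2 0 of the 10 differed, and of all genes 12 were higher and 72 lower in female mice. The smallest unadjusted p was 0.0573, for Gstt3 (edgeR, adjusted p = 1). The interaction of sex with treatment passed for 0 of 10 genes in edgeR's test, as for 0 of all 28419 genes. An unadjusted p under 0.05 was found for 0 of 10, against 717 of all genes. With such small shares over all genes, 0 of 10 says little about the transferases.

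Some fragments cannot be given to 1 gene with certainty. Of the distinct stretches of 50 bases in the transcripts of Gstm1, 18.9% also occur in transcripts of other genes, mostly the pseudogene Gstm2-ps1. This share was 12.5% for Gstt3 (mostly Gm20441), 9.44% for Gstm5 (4933431E20Rik), 9.39% for Gstz1 (mostly Pomt2) and 5.66% for Gstm2, and 0 for Gsta4, Gstt1, Gstk1 and Gsto1. Counting did not use the strand, and 15.9% of the exon bases of Gstm5 overlap with 4933431E20Rik and 22.5% of those of Gstz1 with Gm6566 and Pomt2. Levels of Gstm1, Gstm5, Gstt3 and Gstz1 are uncertain to that extent.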

How the data were processed

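RNA from CD11b-selected brain cells of 10 mice was made into cDNA with SMART-Seq v4 and sequenced in pairs. The authors aligned the reads with STAR to GRCm38 and deposited unstranded, unnormalized fragment counts over RefSeq exons, 1 count per gene. The file headers name featureCounts 1.6.3. The deposited tables also give a length in bases for each gene (the deposited summaries give the counts not assigned to a gene, which were left out). Symbols come from the RefSeq table, which matched 46029 of 46152 genes.

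A gene was analysed if 3 or more libraries had over 1 CPM (28419 genes). After TMM scaling, edgeR's quasi-likelihood test was applied to treatment (edgeR 4.0.16 in R 4.3.3) with Benjamini-Hochberg adjustment over all genes. Slopes added to that model the mean log2 CPM (prior count of 2) of a list. A standard error is the log2 value divided by the square root of F. Exact permutations were run in Python 3.11.15 with numpy 2.4.6 and pandas 2.3.3, and figures with matplotlib 3.10.9. Alternatives were DESeq2 1.42.0, other scalings, filters and prior counts (0.5 and 5), sex, the replicate number as a block, and leaving out libraries. The tests were checked on simulated data.

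The 10 members, the marker lists and the tests were chosen with earlier results of these data known. The genes named are the members, Slc1a2 and Aqp4, the transferases above a mean of 1 CPM, the called genes of the other glutathione lists, the 2 genes most like each member and leading genes of marker lists. Some genes that this rule names are not reported here. Replicates are single mice. Fragments were not tagged by molecule, so some may be PCR copies, and at 12550418 fragments in the smallest library levels near 1 CPM rest on few counts.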

Additional observations from a re-analysis of the deposited data

Results flagged for a closer look

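Within each group of 5 libraries, the highest and the lowest log2 CPM of the 10 transferases and of Slc1a2 and Aqp4 were compared with the rest, as the gap to the nearest library over the range of the group (Dixon's ratio, critical value 0.71). In 24 sets of 5 values (12 genes in 2 groups) 4 values stood apart, in 3 libraries, and about 1 in 20 sets would by chance. Gsto1 in Vehicle 5 was lowest with a ratio of 0.963, at 21.2 CPM against 63.7 to 66.4 CPM in the other 4 vehicle libraries. Slc1a2 in GW2580 4 was highest with a ratio of 0.828, at 50.9 CPM against 13.4 to 16.9. Gstt3 in GW2580 1 was lowest with a ratio of 0.758, at 3.7 CPM against 7.8 to 9.9, and so was Gstm5 in GW2580 1 with a ratio of 0.725, at 6.0 CPM against 13.2 to 17.9. Vehicle 2 and Vehicle 5 were both high in most transferases, and 2 such libraries mask each other in this ratio.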

How the results depend on the processing

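Direction held in 190 of 190 values of the log2 fold changes, in 227 of 240 of the slopes and in 162 of 180 of the correlations over all settings run. The direction of the fold changes was known when the genes were chosen, so their count is a description only. All changes of direction but those of Gstk1 under the replicate block (slope -0.045) and without Vehicle 2 (r -0.00053, and 0.64 at most, without GW2580 4) came from leaving out Vehicle 2 and Vehicle 5, alone or together with GW2580 4, which also leaves fewer samples. The r of Gstm5 (0.021) and Gstm7 (0.31) stayed above 0 without Vehicle 2 and Vehicle 5 and turned only without GW2580 4 as well. Without Vehicle 2 and Vehicle 5 the slope on the astrocyte genes was -0.88 for Gstm2, -0.016 for Gstm5, -0.52 for Gsta4, -0.087 for Gstt3, -0.74 for Gstk1 and -0.25 for Gstz1. The within-group r, which leaves the same libraries out as those farthest from the median, was then -0.64 for Gstm2, -0.42 for Gsta4, -0.066 for Gstt3, -0.79 for Gstk1 and -0.52 for Gstz1. Without GW2580 4 as well, a setting added after seeing the data, the slopes were -2.54 for Gstm2, -2.04 for Gstm5, -0.74 for Gsta4, -3.29 for Gstt3, -1.88 for Gstk1 and -0.82 for Gstz1. The r was -0.71 for Gstm2, -0.70 for Gstm5, -0.091 for Gstm7, -0.36 for Gsta4, -0.91 for Gstt3, -0.86 for Gstk1 and -0.50 for Gstz1. In these 7 libraries the mean log2 CPM of Slc1a2 and Aqp4 ran only from 2.625 to 3.121, against up to 6.154 in Vehicle 5.

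The number of transferases called under treatment, 8 of 10, was 1 without Vehicle 2 and Vehicle 5 and 1 without GW2580 4 as well, 4 with Slc1a2 and Aqp4 as a covariate, and 7 to 8 when each library was left out. The number following the astrocyte genes, 5, was 0 without both libraries, 0 without the 3 libraries, 0 under the replicate block in edgeR, where 6 had an unadjusted p under 0.05, as had 15.5% of all genes, and 3 to 6 with each library left out. The numbers following the oligodendrocyte, neuron and ependymal lists (5, 2 and 4) were 0, 0 and 0 without both libraries. Scaling by library size gave 1 for the ribosomal list in place of 0 and 1 for the ependymal list in place of 4, and the cause was not tested. On the microglia list, 2 genes passed with a negative slope under that scaling, as did 3.47% of all genes. DESeq2 called 8 under treatment at the threshold of the study and gave 6 with an adjusted p under 0.05 for the astrocyte genes. Of all 28419 genes it called 2065 lower, and 1794 passed with a positive slope. At an adjusted p under 0.05 the treatment contrast held for 0 transferases in edgeR, where 8 had an unadjusted p under 0.05, and for 5 in DESeq2. Of all 28419 genes, 0 passed in edgeR, where 4186 had an unadjusted p under 0.05 in either direction. In DESeq2 104 passed as lower and 73 as higher.

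Among the other transferases, the number called, 2 (both lower), was 1 by library size, where both were lost and Gstt4 was called higher (log2 fold change 1.09), 0 without the 3 libraries and 0 to 3 with each library left out. Among the synthesis genes the number, 4, was 1 by library size, 2 under the replicate block, 0 without both libraries, 1 without the 3 libraries, 1 with the covariate, and 1 to 5 with each library left out. The replicate numbers do not pair the mice. Same-numbered libraries deviated together with correlations of 0.087, 0.252, 0.039, -0.190 and -0.446, and under the block 7 transferases were called in place of 8. Genes near 1 CPM, such as Gstm2 with GW2580, are limited by depth.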
